A study of Mus musculus with 10 samples.

Results

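Signals were examined for 8 transcription factor genes of basal keratinocytes, Vdr, Bnc1, Egr2, Ets2, Tcf7l1, Trp63, Tfap2a and Hr, out of 12393 genes named on the array. The genes were chosen by their signal in the outer root sheath (ORS), so their signals in the populations are given as a description, with no test. All 16 probe-sets (sets of short probes against one transcript) of the 8 genes were read, and 12 of them reached a signal of 200 in both arrays of at least 1 population. Each gene was represented by its brightest probe-set, and the others are given beside it.

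The arrays came from 5 cell populations, each measured on 2 arrays, that were sorted from the dermis of 4 day old (P4) backskin of mice carrying both the K14-H2BGFP and the Lef1-RFP transgene. The first puts a green nuclear protein under the keratin 14 promoter of epithelial cells, and the second a red protein under a fragment of the human Lef1 promoter, active here in the dermal papilla and melanocytes. ORS cells were GFP-high and RFP-negative, and hair matrix cells (Mx) GFP-low and RFP-negative. Dermal papilla cells (DP) were RFP-high and GFP-negative, the dermal fraction (DF) was negative for both reporters, and both were depleted of cells with CD34, CD45 or CD117. Melanocytes (Mc) were RFP-high, GFP-negative and CD117-positive. Epidermis and the upper follicle were removed before the sort, each preparation pooled several backskins, and no population lacked the transgenes.

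The ORS is the outermost epithelial layer of the follicle, continuous with the basal layer of the epidermis, and the matrix at its base gives rise to the hair shaft and inner root sheath. Trp63 encodes p63, on which stratified epithelia depend, and Tcf7l1 (also called Tcf3) is a DNA-binding partner of β-catenin that acts mainly as a repressor. Vdr, the vitamin D receptor, and Hr, its corepressor hairless, are both needed for the hair cycle after birth, and mice lacking either lose their hair.

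Promoter sequence is printed for 4 members with contrasting patterns, Vdr and Bnc1, whose second highest population differed, Ets2, at 200 or more in every population, and Tcf7l1, shared with the dermis. Each line gives the 250 bases before the start site on the gene's own strand, from RefSeq on build GRCm38.p6. Capitals mark matches to the searched motifs. The windows are chr15:97908297-97908546 for Vdr (minus strand), chr7:81992300-81992549 for Bnc1 (minus strand), chr16:95702157-95702406 for Ets2 (plus strand) and chr6:72789046-72789295 for Tcf7l1 (minus strand), each lying directly before the annotated gene.
Vdr: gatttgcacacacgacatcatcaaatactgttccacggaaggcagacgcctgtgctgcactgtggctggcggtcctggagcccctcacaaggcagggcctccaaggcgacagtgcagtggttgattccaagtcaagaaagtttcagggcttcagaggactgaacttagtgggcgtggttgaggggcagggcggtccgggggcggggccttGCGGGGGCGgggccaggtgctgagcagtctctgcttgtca
Bnc1: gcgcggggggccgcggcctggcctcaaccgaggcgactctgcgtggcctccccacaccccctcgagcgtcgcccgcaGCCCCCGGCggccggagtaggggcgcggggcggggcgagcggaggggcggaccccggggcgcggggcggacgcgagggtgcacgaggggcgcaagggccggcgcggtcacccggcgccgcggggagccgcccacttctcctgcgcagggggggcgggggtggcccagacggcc
Ets2: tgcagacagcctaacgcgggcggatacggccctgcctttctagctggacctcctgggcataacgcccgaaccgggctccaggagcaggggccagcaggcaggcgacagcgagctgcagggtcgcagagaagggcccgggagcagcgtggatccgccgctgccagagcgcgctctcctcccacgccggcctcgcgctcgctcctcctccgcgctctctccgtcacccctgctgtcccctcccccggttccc
Tcf7l1: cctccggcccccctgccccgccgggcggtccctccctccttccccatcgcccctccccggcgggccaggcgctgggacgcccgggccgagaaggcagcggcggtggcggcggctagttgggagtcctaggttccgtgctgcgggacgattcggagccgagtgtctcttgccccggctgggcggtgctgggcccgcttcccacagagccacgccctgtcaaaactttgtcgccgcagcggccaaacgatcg

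Promoters were matched for 6 of the 8 members, all but Trp63 and Hr. The Vdr window held a variant of the EGR motif, GCGGGGGCG, at positions -40 to -32 from the start site, which 2.57% of 32817 promoters held. The Bnc1 window held the AP-2 motif, GCCNNNGGC, at positions -173 to -165, against 13.7% of promoters. The Ets2 and Tcf7l1 windows held none of the motifs. The other motifs searched, on both strands, were the ETS motif CCGGAAG (6.9% of promoters), the EGR motif GCGTGGGCG (0.536%), the TCF/LEF motif CTTTGAT (3.21%), the nuclear receptor half-site AGGTCA (14.0%), the TATA box TATAAA (12.4%) and the CCAAT box CCAAT (33.8%). Among the start sites not printed, 1 of Egr2 held the AP-2 motif at positions -159 to -151, and neither of Tfap2a held a motif. Other start sites of Egr2, whose windows overlap, held the same CCAAT box. Within a window the matches did not overlap each other, and a match is a description of letters, not a binding site. The windows were rich in G and C. They held 61.2% G and C and 11 CpG in Vdr, 83.6% and 39 in Bnc1, 71.6% and 25 in Ets2, and 73.6% and 29 in Tcf7l1, against a median of 52.4% and 6 CpG over all promoters.

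Each sorted population reached 200 in both arrays for most markers of its label, with 6 of 7 in DP and 7 of 7 in Mc. Of 7 fibroblast markers, 6 did so in DF but also 6 in DP. Means of Lum and Pdgfra were higher in DP (318 and 1542) than in DF (153 and 634). All 7 markers of the ORS and basal keratinocytes, among them Krt5, Krt14 and Krt15, reached 200 in both ORS arrays, and 3 did in Mx, 2 in DF and none in DP or Mc. The DF arrays also held signal of other cells, with 4 of 7 endothelial and lymphatic markers, 4 of 7 melanocyte markers, 3 of 5 Schwann cell markers and 1 of 3 red cell markers at 200, and 5 of 7 melanocyte markers reached it in DP. No immune marker did in any population. Of the 7 matrix and hair shaft markers, 6 reached 200 in Mx, 4 in ORS, with Krt25 at 1336.1 and 1788.9, and 2 in DF, where their sum was 1142 in replicate 1 and 4651 in replicate 2. In ORS, 3 of 7 fibroblast markers reached 200, as in Mx and in Mc, with Dcn at 1766.4 and 890.2 in ORS. Dcn was higher in Mx (4725.1 and 3051.9) than in DF (1326.4 and 1913.7). Median signals ran from 49.9 (Mx replicate 1) to 90.9 (DP replicate 2). Levels are signals on a linear scale. Differences are between means of log2(signal + 50), which understates the change of low genes, and probe-sets are compared only with themselves. In such bulk samples, fewer cells of a type and less RNA per cell cannot be told apart.

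Of the 8 members, 7 had their highest mean in ORS, all but Tfap2a, where 18.1% of 5253 tested genes did. In 5 (Vdr, Bnc1, Egr2, Ets2 and Trp63) both ORS arrays lay above the 8 other arrays, against 8.49% of tested genes. None of the 8 reached 200 in both ORS arrays and in no other population, against 3.16% of tested genes. This count was 3 with the mean of all probe-sets of a gene, 4 at a bound of 400 and 2 with the second brightest probe-set, an alternative chosen after seeing the data. As these signals chose the members, the counts are descriptive. Each member had a second population at 200 or more in both arrays. It was DP for Vdr, and Mx for Bnc1, Trp63 and Hr. Egr2 reached it in Mx and DF, Tcf7l1 in DF and DP, Tfap2a in Mx and Mc, and Ets2 in all 5 populations. Values near that bound were 217.5 for Vdr in DP replicate 1 and 205.6 for Egr2 in DF replicate 1 on the inside, and 192.2 for Tfap2a in DP replicate 2 and 180.4 for Hr in DF replicate 1 on the outside.

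**Figure D1:**
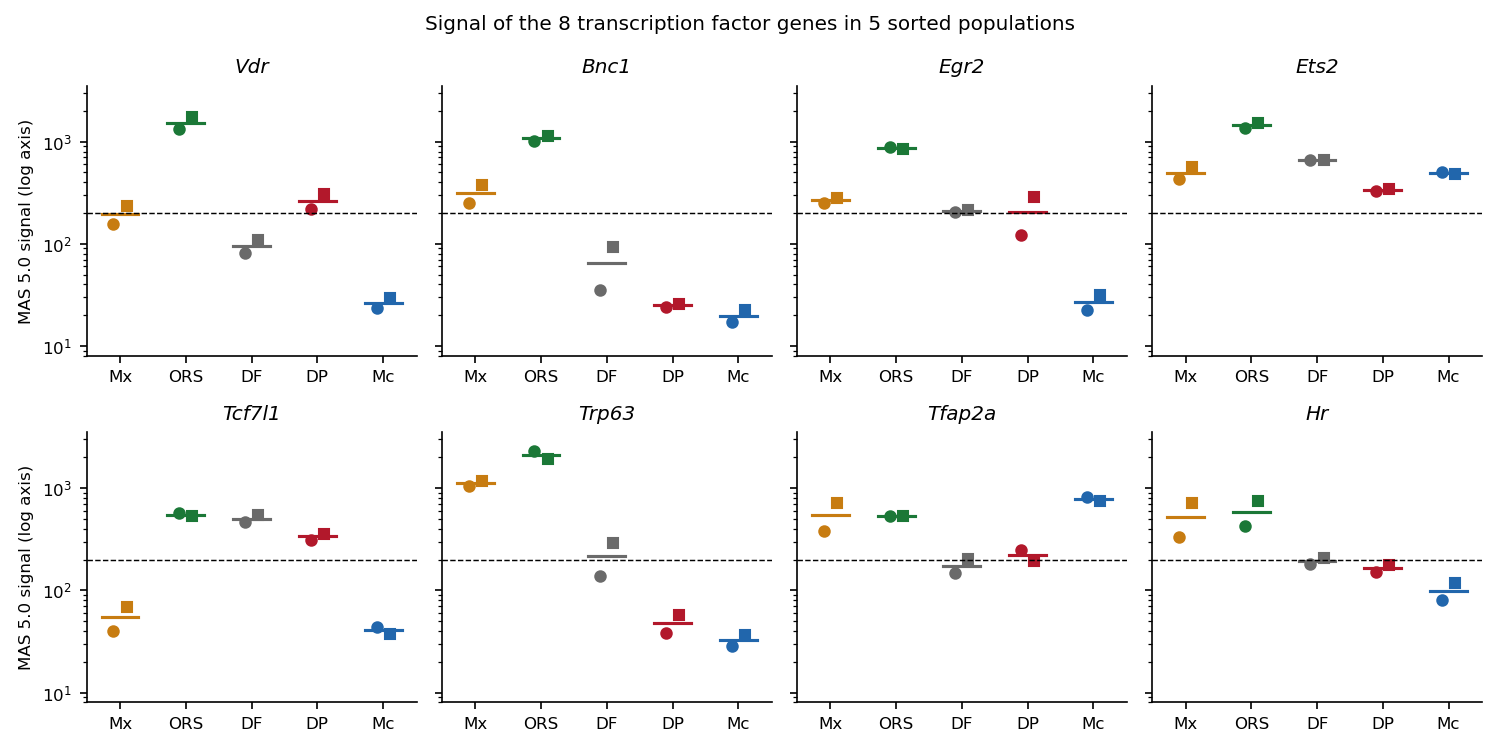
Signal (vertical log axis, MAS 5.0 units) of the brightest probe-set of each member in the 5 populations. Circles are replicate 1, squares replicate 2, short lines the means and the dashed line a signal of 200. In Vdr, Bnc1, Egr2, Ets2 and Trp63 both ORS points lie above all 8 others, in Tcf7l1 the ORS and DF points overlap, in Hr the ORS and Mx points overlap, and Tfap2a is highest in Mc.

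Vdr (chr15:97854427-97908296), a ligand-activated nuclear receptor, had signals of 1324.4 and 1728.5 in the ORS arrays. Gene positions here and below are those of GRCm38.p6. It lay at 217.5 and 308.9 in DP, 156.8 and 233.1 in Mx, 80.7 and 109.0 in DF, and 23.4 and 29.7 in Mc. Both ORS arrays were far above all others, DP and Mx overlapped, and Mc was lowest. The means were 1526 ± 286 in ORS, 263 ± 64.6 in DP and 195 ± 54.0 in Mx (SD, n = 2). ORS exceeded DP by 2.34 on the log2 scale (5.05-fold), Mx by 2.69 (6.46-fold), DF by 3.44 (10.8-fold) and Mc by 4.35 (20.4-fold). Over the 4 pairings of an ORS with a DP array the difference ran from 1.94 to 2.73. The other Vdr probe-set, 1418175_at, gave the same order, with 1404.0 and 2030.3 in ORS against 147.3 and 224.4 in DP and 111.6 and 234.6 in Mx, and correlated with the first (1418176_at) at r = 0.99 over the 10 arrays. By 1418175_at, ORS was the only population with both arrays at 200.

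Hr (chr14:70554056-70573548), which binds Vdr and represses transcription with it, was not separated between ORS and Mx. Its signal was 426.8 and 749.0 in ORS and 333.5 and 719.4 in Mx, so that the arrays interleaved, with replicate 2 the higher in both. It was 180.4 and 207.2 in DF, 150.3 and 177.9 in DP, and 81.1 and 116.6 in Mc, each below every ORS and Mx array. The mean was 588 ± 228 in ORS and 526 ± 273 in Mx, a log2 difference of 0.18 that ran from -0.69 to 1.06 over the array pairs. Without Mx replicate 1 it was -0.32, and without ORS replicate 2 it was -0.19. ORS lay 1.34 above DF, 1.53 above DP and 2.06 above Mc on the log2 scale. Beside its corepressor, Vdr in Mx was at 12.8% of its ORS mean while Hr in Mx was at 89.5%. The second Hr probe-set, 1422110_at, stayed between 31.7 and 83.2 on all arrays and did not pass the filter.

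Trp63 (chr16:25683763-25892088) was read by 1418158_at at 2325.7 and 1926.0 in ORS and 1058.0 and 1180.8 in Mx. It was 139.5 and 290.4 in DF, 38.2 and 57.9 in DP, and 28.8 and 36.7 in Mc. No population overlapped its neighbour, in the order ORS, Mx, DF, DP and Mc, and both epithelial populations were far above the rest. The DP and Mc signals were below the medians of their arrays, and the order between them is not read as a ranking. The mean was 2126 ± 283 in ORS and 1119 ± 86.8 in Mx (SD, n = 2), a log2 difference of 0.89 (1.86-fold), with 0.68 to 1.10 over the array pairs. The differences from DF, DP and Mc were 3.09, 4.47 and 4.71 on the log2 scale. The other Trp63 probe-sets, 1451876_a_at and 1452027_a_at, peaked at 137.7 and 124.5 in ORS replicate 1, did not pass the filter, and correlated with the first at r = 0.86 and 0.96. Both were also higher in each ORS array than in any other array.

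Bnc1 (chr7:81966657-81992299), which encodes basonuclin, a zinc finger protein of basal keratinocytes, followed the same order. Its signal was 1022.1 and 1145.7 in ORS, 252.6 and 377.4 in Mx, 35.5 and 93.1 in DF, 24.2 and 26.0 in DP, and 17.3 and 22.4 in Mc. Again no neighbours overlapped, but the signals in DP, Mc and DF replicate 1 were below the medians of their arrays. The order among DF, DP and Mc is therefore not read as a ranking. The mean was 1084 ± 87.4 in ORS and 315 ± 88.2 in Mx (SD, n = 2). ORS exceeded Mx by 1.65 on the log2 scale (3.15-fold), with 1.33 to 1.98 over the array pairs. ORS lay 3.36 above DF, 3.91 above DP and 4.02 above Mc. Among all pairs of members, Bnc1 and Trp63 had the highest correlation over the 10 arrays, r = 0.97.

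Egr2 (Krox20, chr10:67534469-67542188), a zinc finger factor known from hindbrain patterning and myelination by Schwann cells, had signals of 894.4 and 849.6 in ORS by 1427683_at. It was 252.8 and 282.8 in Mx, 205.6 and 213.6 in DF, 121.1 and 290.3 in DP, and 22.5 and 31.9 in Mc. Only Mc was near the bottom of the range, while Mx, DF and DP lay close together and DP overlapped both Mx and DF. The mean was 872 ± 31.7 in ORS and 268 ± 21.2 in Mx (SD, n = 2). The ORS mean exceeded Mx by 1.54 (2.9-fold), DF by 1.83 (3.55-fold), DP by 1.93 (3.82-fold) and Mc by 3.58 (12.0-fold), with log2 values first. The DP arrays differed most, so that the difference from DP ran from 1.40 to 2.46. The dimmer probe-set 1427682_a_at had 247.5 and 245.0 in ORS and no other population at 200 in both arrays (r = 0.96 with the brighter).

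Ets2 (chr16:95702407-95721049), of the ETS family of transcription factors, was the member at 200 or more on all 10 arrays. Its signal was 1371.0 and 1522.1 in ORS, 665.7 and 655.6 in DF, 500.7 and 486.1 in Mc, 427.7 and 566.4 in Mx, and 328.0 and 340.4 in DP. The ORS arrays stood above all others, and DF came next. The mean was 1447 ± 107 in ORS and 661 ± 7.14 in DF (SD, n = 2). On the log2 scale ORS exceeded DF by 1.07 (2.1-fold), with 0.99 to 1.16 over the array pairs, Mx by 1.46, Mc by 1.46 and DP by 1.96. Mx and Mc overlapped.

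Tcf7l1 (chr6:72626371-72789045) was shared by ORS with the mesenchyme and not with Mx. By 1450117_at it was 570.4 and 530.1 in ORS, 461.4 and 542.6 in DF, and 313.6 and 359.6 in DP, against 39.8 and 69.3 in Mx and 43.8 and 37.1 in Mc. ORS and DF overlapped, DP was lower, and Mx and Mc overlapped at the bottom. The mean was 550 ± 28.5 in ORS, 502 ± 57.4 in DF and 54.5 ± 20.9 in Mx (SD, n = 2). ORS lay 0.12 above DF, with -0.03 to 0.28 over the array pairs, 0.64 above DP, 2.54 above Mx (5.8-fold) and 2.73 above Mc (6.64-fold) on the log2 scale. The second probe-set, 1436207_at, had 711.3 and 622.2 in ORS and 525.0 and 576.9 in DF, so that on it ORS and DF did not overlap, and it gave 284.1 and 205.1 in DP and 35.0 and 61.0 in Mx (r = 0.98 with the first). There ORS lay 1.29 above DP on the log2 scale (2.45-fold). Tcf7l1 and Trp63 correlated at r = 0.23 over the 10 arrays.

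Tfap2a (chr13:40713802-40738238), which encodes AP-2α, a factor of the epidermis and neural crest, was the member highest in melanocytes, a neural crest lineage. By 1426048_s_at it was 810.8 and 754.5 in Mc, 530.1 and 533.5 in ORS, 383.8 and 708.3 in Mx, 249.4 and 192.2 in DP, and 146.2 and 201.0 in DF. Both Mc arrays were above all others, the Mx arrays lay on either side of those of ORS, and DP and DF overlapped at the bottom. The mean was 783 ± 39.8 in Mc, 532 ± 2.40 in ORS and 546 ± 229 in Mx (SD, n = 2). ORS minus Mc was -0.52 on the log2 scale, with -0.57 to -0.46 over the array pairs. ORS minus Mx was 0.02, with -0.39 to 0.43. ORS lay 1.39 above DF and 1.11 above DP. Probe-set 1421996_at, with 948.2 and 810.0 in Mc against 393.9 and 484.4 in ORS, and 1421995_at, which did not pass the filter, were also highest in Mc. ORS and Mx arrays overlapped on all 3 probe-sets.

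**Figure D2:**
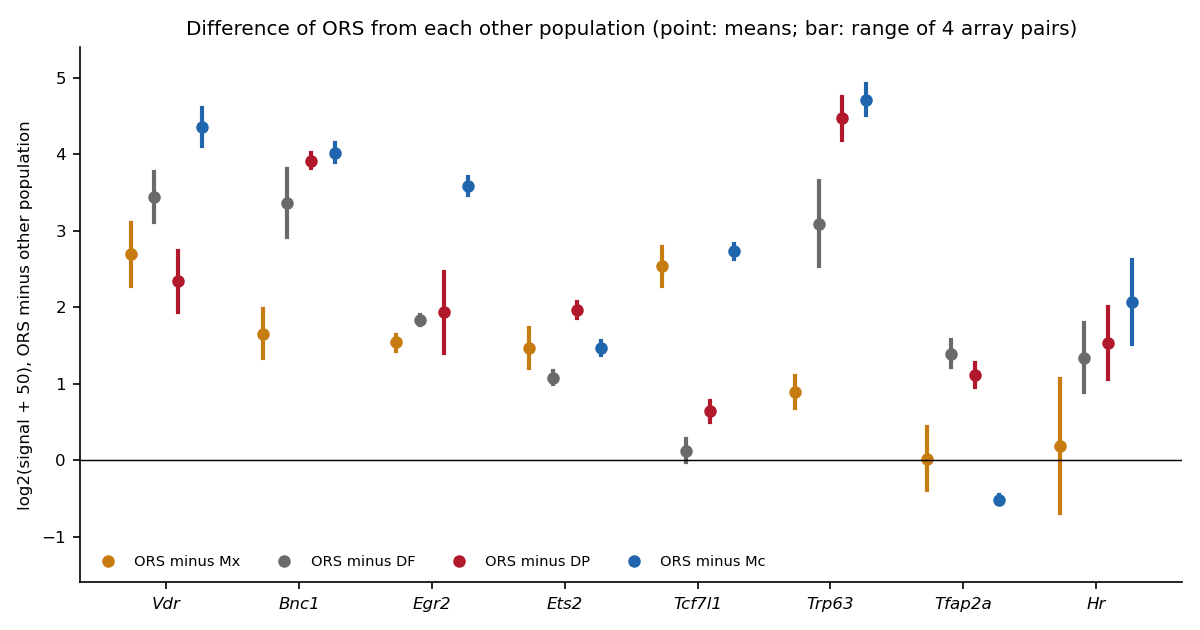
Difference in mean log2(signal + 50) of ORS from each other population (vertical axis) for the 8 members. Points are differences of means of 2 arrays and bars the range over the 4 pairs of arrays. The bar of Hr against Mx runs from -0.69 to 1.06, those of Tfap2a against Mx and Tcf7l1 against DF also cross 0, and Tfap2a against Mc lies below 0.

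Levels outside the epithelium were set beside those of keratinocyte markers in the same arrays, each gene as a percentage of its own ORS mean. In DF the markers Krt5, Krt14 and Krt15 were at 4.58%, 3.84% and 1.72% in replicate 1 and 12.7%, 8.78% and 3.43% in replicate 2. Trp63 was at 6.56% and 13.7%, Bnc1 at 3.28% and 8.59%, and Vdr at 5.29% and 7.14%. These values were near those of Krt5 and Krt14 and, like them, were higher in replicate 2, whose summed signal of the 7 keratinocyte markers was 2266 against 1058 in replicate 1. In replicate 1 the signals of Bnc1 (35.5) and Vdr (80.7) were below the array median of 82.3. The part that keratinocyte or matrix RNA had in these DF signals was not tested. Egr2 in DF was at 23.6% and 24.5%, Ets2 at 46.0% and 45.3%, Tfap2a at 27.5% and 37.8%, Hr at 30.7% and 35.2%, and Tcf7l1 at 83.9% and 98.6%. These 5 were above Krt5, Krt14, Krt15 and Krt17 in both DF arrays, but the marker Itgb4, at 30.8% and 35.6%, was above Egr2 and near Hr.

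In DP the keratins Krt5, Krt14 and Krt17 had means of 2.39%, 2.01% and 2.87% of ORS. The other markers had signals below the medians of the DP arrays (79.4 and 90.9). Of these, Itgb4 was at 12.5%, Lgr5 at 4.21%, Col17a1 at 0.835% and Krt15 at 0.388%. Trp63 (38.2 and 57.9) and Bnc1 (24.2 and 26.0) also had signals below these medians, so that their percentages, 2.26% and 2.32%, were not ranked. Vdr was at 17.2%, Ets2 at 23.1%, Egr2 at 23.6%, Hr at 27.9%, Tfap2a at 41.5% and Tcf7l1 at 61.2%. In Mc, Krt14 was at 0.895%. Trp63, Vdr, Bnc1, Egr2 and Tcf7l1 had mean signals of 19.9 to 40.5 there, below the median of 60.1 and 68.1 over all probe-sets of the Mc arrays, so that their percentages were not ranked. Hr was at 16.8% and Ets2 at 34.1%, and Tfap2a exceeded its ORS mean, at 147%. Markers of other cells were also present. The Schwann cell markers, of which 5 of 7 were on the array, summed to 5245 and 3832 in DF, 1764 and 2260 in DP, 2100 and 2417 in Mc and 145 to 416 in Mx and ORS, with Mbp, of myelin, at 2053.9 and 1490.5 in DF. In Mc, where Egr2 was lowest, the sum was mostly Sox10 (1835.2 and 1894.1), which melanocytes express too, and Mbp was 23.8 and 22.1. Their part in the DF signal of Egr2 was not tested. The melanocyte markers summed to 23724 and 14712 in DP, where Tfap2a was 249.4 and 192.2, and to 12577 and 3837 in DF, where it was 146.2 and 201.0. By 1421996_at Tfap2a was 285.1 and 250.9 in DP and 180.4 and 156.0 in DF, so that the order of the DF arrays turned with the probe-set. The part of melanocyte RNA in these signals was not tested.

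**Figure D3:**
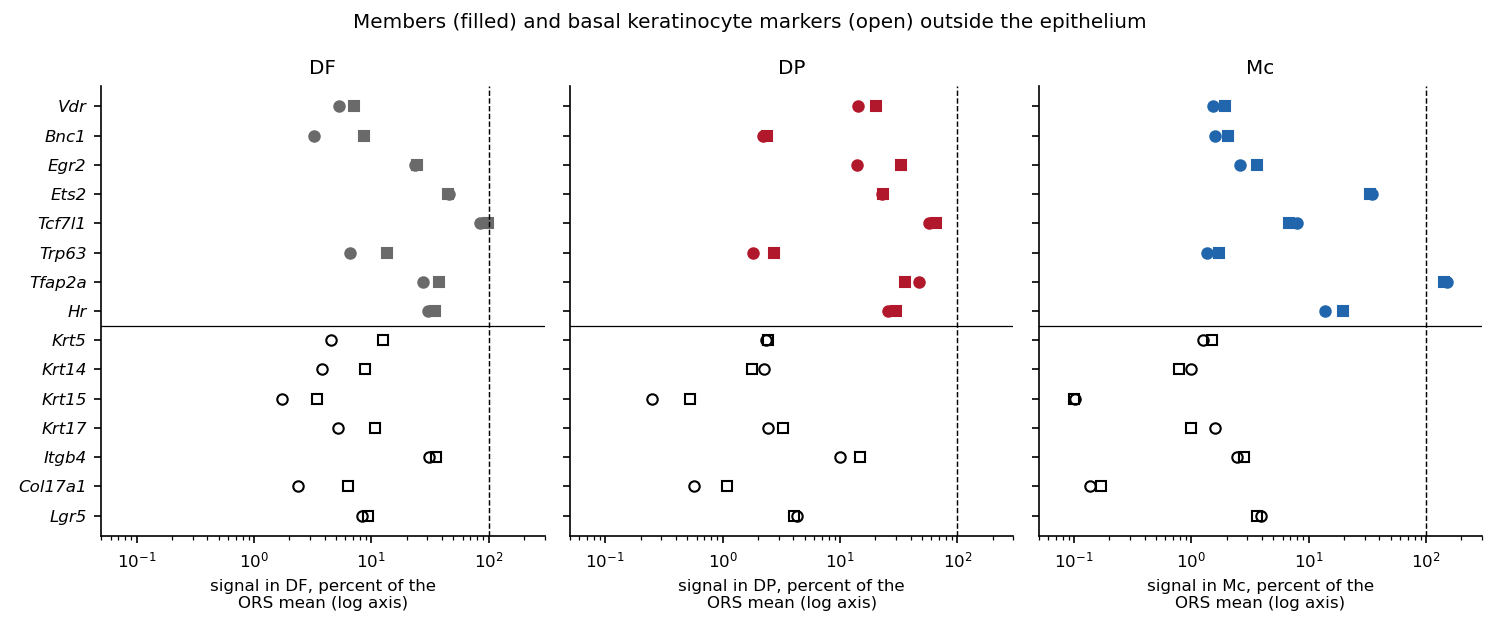
Signal in DF, DP and Mc as a percentage of the mean ORS signal of the same gene (horizontal log axis), for the 8 members (filled) and 7 keratinocyte markers (open). Circles are replicate 1 and squares replicate 2, and the dashed line is 100%. Trp63 and Bnc1 lie near Krt5 and Krt14 in DF, Tcf7l1 reaches 98.6% in DF, and Tfap2a passes 100% in Mc. In DP and Mc the signals of Trp63 and Bnc1 are below the array medians, and their percentages are not ranked.

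Between the epithelial populations, Mx held 103% of the ORS mean for Tfap2a, 89.5% for Hr, 52.7% for Trp63, 34.4% for Ets2, 30.7% for Egr2, 29.1% for Bnc1, 12.8% for Vdr and 9.91% for Tcf7l1. The keratins were also spread, with Krt17 at 53.2%, Krt5 at 35.7%, Krt14 at 29.3% and Krt15 at 3.59%. As K14 promoter activity divided the sort gates of ORS and Mx, the Krt14 value is no finding.

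The genes with the most similar pattern over the 10 arrays were found by Pearson's r on log2(signal + 50) among tested genes. The arrays share populations and chip lots, so r is descriptive. Trp63 was most like Fxyd3 (r = 0.994), Krt17 (0.994) and Krt5 (0.992), of which the last are basal keratins. Bnc1 was most like Ckmt1 (0.995), Tenm2 (0.993) and Acad9 (0.993), and Vdr like Isoc1 (0.965), Rprd1a (0.953) and Acss2 (0.952). Egr2 was most like Irx2 (0.976), Tnfaip8 (0.974) and Zc3h14 (0.959), and Ets2 like Gstm2 (0.977), Ak4 (0.976) and Nfib (0.968), the last a factor of hair follicle stem cells. Tcf7l1 was closest to Cald1 (0.985), Dbn1 (0.977) and Timp3 (0.977), the first an actin-binding protein and the last an inhibitor of matrix proteases. Tfap2a was most like Wnt4 (0.957), Zbtb18 (0.954) and Mtmr10 (0.936), and Hr like Fam83h (0.973), Epha1 (0.972) and Trim29 (0.968). Between members, Vdr and Egr2 correlated at 0.92, Trp63 and Hr at 0.92, and Tcf7l1 and Tfap2a at -0.62.

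Genes around the members were then compared between ORS and each other population with limma, on lists from which the members were left out. The lists were chosen with earlier results of these data known. With 2 arrays per population no permutation test can reach 0.05, and each adjusted p rests on a spread pooled over populations and probe-sets and measures only the spread between these samples. The 4 comparisons share the ORS arrays, and a gene was tested only if it reached 200 in both arrays of some population.

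Among relatives and partners of the members, 37 of 67 were tested. Against Mx, 6 were higher in ORS and 1 lower, where 15.5% of all tested genes were higher and 4.25% lower. Against DF, 10 were higher and 7 lower (15.0% and 20.3% of all genes). Against DP, 3 were higher and 11 lower (20.0% and 21.1%), and against Mc, 14 were higher and 6 lower (25.5% and 16.1%). The median log2 differences were 0.24, 0.29, 0.05 and 0.38, beside 0.12, 0.01, 0.00 and 0.15 over all tested genes. Against Mx, 4 were called without ORS replicate 2 and 11 without Mx replicate 2, and against DF 9 without ORS replicate 1, 11 without ORS replicate 2 and 9 without DF replicate 1.

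The nuclear receptor partners of Vdr were Rxra, Rxrb and Rxrg, with which it binds DNA as a heterodimer. Rxra had signals of 429.2 and 588.5 in ORS, 178.8 and 344.3 in Mx, 289.1 and 304.3 in DF, 403.7 and 380.8 in DP, and 96.1 and 87.9 in Mc. Its mean was highest in ORS, but the difference from DP, 0.32 on the log2 scale, did not pass the test (limma adjusted p = 0.311). It was above Mc by 1.96 (limma adjusted p = 2.79e-05). Its call against Mx (0.88, limma adjusted p = 0.0225) was lost without Mx replicate 1 (difference 0.49) or ORS replicate 2 (0.67). That call was also lost with no signal filter, quantile normalization or chip lot as a block (limma adjusted p = 0.0763, 0.0534 and 0.0514). The call against DF (0.67, limma adjusted p = 0.0476) was lost without any single array of ORS, DF, DP or Mc. The difference was 0.88 and 0.47 without the ORS arrays, and 0.64 and 0.71 without those of DF. Pseudocounts of 1 and 16, no filter and chip lot as a block also removed it (limma adjusted p = 0.0787, 0.0598, 0.0973 and 0.0563). Rora, an orphan nuclear receptor, was lower in ORS than in DF (-2.05, limma adjusted p = 5.49e-05), and Rarb, a retinoic acid receptor, lower than in Mc (-2.33, limma adjusted p = 8.96e-07). Rxrb ran from 163.3 to 359.2 with no call, and Rxrg was not tested, with a highest signal of 141.1.

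Ets1, the closest relative of Ets2, differed from it in ORS, where Ets1 was low. It was 29.2 and 25.5 in ORS and 10.4 and 10.1 in Mx, against 597.8 and 896.2 in DF, 406.4 and 611.0 in DP, and 706.9 and 720.6 in Mc. Epithelial and other populations did not overlap, and ORS was lower by a log2 difference of -3.34 against DF (limma adjusted p = 1.69e-07), -2.83 against DP (6.83e-07) and -3.30 against Mc (1.95e-07). Elk3, another ETS factor, had signals of 40.5 and 39.2 in ORS, 698.1 and 659.4 in DF, 278.5 and 347.9 in DP, and 265.7 and 233.6 in Mc, with -3.02 against DF (limma adjusted p = 6.52e-08) and -2.01 against DP (1.62e-06). Etv4 had 229.5 and 189.7 in ORS, 224.6 and 336.3 in Mx, 38.5 and 23.7 in DF, 13.4 and 12.7 in DP, and 195.2 and 80.9 in Mc. Both Mx and Mc overlapped ORS, with differences of -0.33 and 0.53 (limma adjusted p = 0.439 and 0.14). Etv4 was higher in ORS than in DP by 2.04 (limma adjusted p = 6.21e-05) and than in DF by 1.68 (3.59e-04). Etv5 was highest in Mc, at 894.7 and 442.4 against 101.5 and 103.0 in ORS (-2.16, limma adjusted p = 2.18e-05).

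Egr1, the immediate early relative of Egr2, was bright throughout, at 5404.1 and 5761.7 in ORS, 2521.6 and 3216.2 in Mx, 3889.2 and 4962.0 in DF, 5152.6 and 5724.3 in DP, and 528.2 and 523.3 in Mc. ORS and DP overlapped and Mc was lowest. ORS was above Mc by 3.29 (limma adjusted p = 7.27e-08) and above Mx by 0.96 (0.00352), and passed no test against DF or DP. Egr3 stayed between 38.0 and 106.5 and was not tested.

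Among the relatives of Tcf7l1, Tcf7l2 (also called Tcf4) had signals of 187.5 and 236.8 in ORS, 208.2 and 264.4 in DF, 117.9 and 185.9 in DP, 19.6 and 61.0 in Mx, and 48.5 and 77.5 in Mc. As for Tcf7l1, ORS and DF overlapped and Mx and Mc were lowest, with ORS above Mx by 1.57 (limma adjusted p = 7.45e-04) and above Mc by 1.22 (0.00208). Lef1, known in the matrix and papilla, was not tested. Its signal was 106.5 and 269.0 in Mx, 137.6 and 124.1 in Mc, 101.2 and 102.6 in DP, 35.9 and 46.4 in DF, and 31.8 and 34.0 in ORS, so that ORS was lowest. Tle2, a Groucho-type corepressor that such factors recruit, was highest in DP, at 1537.2 and 1504.1 against 41.6 and 68.3 in ORS (-3.92, limma adjusted p = 1.34e-08).

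The AP-2 relatives differed between populations. Tfap2b was highest in Mc like Tfap2a, at 1055.1 and 636.5 against 235.4 and 182.5 in ORS (-1.76, limma adjusted p = 4.06e-05). Tfap2c was 188.7 and 153.1 in ORS, 163.3 and 245.6 in Mx, 205.1 and 292.3 in DP, 49.2 and 29.5 in DF, and 3.6 and 9.0 in Mc, and thus lowest where Tfap2a and Tfap2b were highest (ORS minus Mc 1.97, limma adjusted p = 1.29e-05). Among AP-2 coactivators, Cited2 was higher in ORS than in Mx by 1.45 (limma adjusted p = 3.09e-04), and Cited4 was higher in Mx (-1.49, limma adjusted p = 3.99e-04). The p63 relative Trp73 was not tested, at 71.8 and 87.0 in ORS and at most 37.1 elsewhere.

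**Figure D4:**
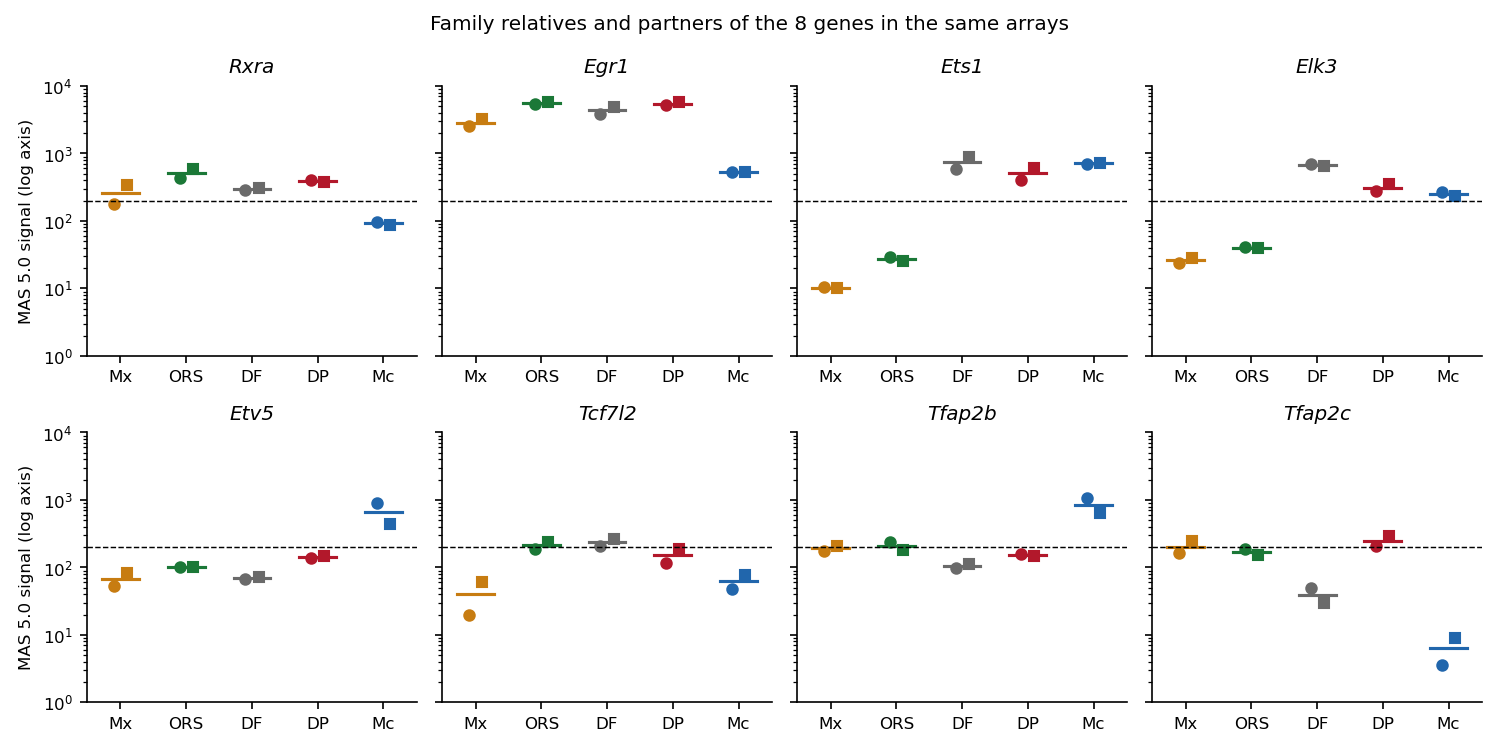
Signal (vertical log axis, MAS 5.0 units) of 8 relatives and partners of the members in the 5 populations. Circles are replicate 1, squares replicate 2, short lines the means and the dashed line a signal of 200. Ets1 and Elk3 are low in Mx and ORS and high elsewhere, Tcf7l2 is lowest in Mx and Mc, and Tfap2b and Tfap2c are highest and lowest in Mc.

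Of 31 genes known as targets of p63 in keratinocytes, 23 were tested. Against Mx, 10 were higher in ORS and 1 lower, against DF 17 and 2, against DP 18 and 2 (4 lower with the replicate block), and against Mc 19 and 1, with the shares of all genes given above. Their median log2 difference was 0.03 against Mx, 1.97 against DF, 2.15 against DP and 2.57 against Mc. The list holds Krt14, whose promoter defined the sort, and other basal markers. Against Mx the largest differences were those of Lamb3, a laminin chain of the basement membrane (2.33, limma adjusted p = 6.62e-06), and Itga6, a hemidesmosome integrin (1.99, 5.47e-05), while Cdkn1a, a cell cycle inhibitor, was lower (-1.16, limma adjusted p = 0.00168). The partner of Itga6, Itgb4, was higher by 1.55 (limma adjusted p = 0.00332), a call lost without ORS replicate 2 (adjusted p = 0.0509), without which 7 genes of the list were called against Mx in place of 11. Against DF, DP and Mc the keratins Krt14 and Krt5 differed most. Krt14 was higher by 1.73 against Mx, 3.89 against DF, 5.12 against DP and 5.82 against Mc. Krt5 was higher by 3.55, 4.99 and 5.55 (limma adjusted p = 3.14e-06, 1.86e-07 and 8.51e-08). Lamb3 was higher than in DF by 2.61 (limma adjusted p = 6.45e-07). Sfn, stratifin, was higher than in DF, DP and Mc by 2.73, 3.62 and 4.17 (limma adjusted p = 1.15e-04, 8.44e-06 and 2.17e-06). The desmosome protein Pkp1 was higher by 4.00 against DP and 4.23 against Mc (limma adjusted p = 9.87e-06 and 5.17e-06). Against Mx neither passed the test, with -0.42 for Sfn and -0.24 for Pkp1 (limma adjusted p = 0.498 and 0.753).

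Of 36 other regulators of keratinocytes and follicles, 31 were tested. Against Mx, 7 were higher in ORS and 16 lower (15.5% and 4.25% of all tested genes), with a median of -0.88 beside 0.12 over all. The list holds genes of the matrix signature that the study drew from these arrays, such as Msx1, Msx2, Hoxc13, Dlx3 and Foxq1. The counts against Mx follow in part from that choice and are descriptive. Against DF, 12 were higher and 4 lower (15.0% and 20.3%), with a median of 0.42 beside 0.01. Against DP, 17 were higher and 6 lower (20.0% and 21.1%), with a median of 0.79 beside 0.00, and against Mc, 22 and 2 (25.5% and 16.1%), with a median of 1.72 beside 0.15. Without ORS replicate 2, 10 were lower than in Mx and 1 than in DF, and without DP replicate 1, 3 were lower than in DP. Against DF, 16 were called in all, and 10 without DF replicate 1, of which 2 were lower. Tbx1, a T-box factor, had signals of 1069.8 and 1595.9 in ORS against 64.9 and 101.3 in Mx and at most 211.2 elsewhere, and was higher in ORS than in Mx by 3.36 (limma adjusted p = 1.6e-06). Lhx2, a LIM-homeodomain factor of follicle stem cells, was 1385.9 and 1034.4 in ORS, 321.6 and 320.5 in Mx, and at most 95.8 elsewhere, and had the largest difference of the list against DF, DP and Mc (3.27, 3.83 and 4.08, limma adjusted p = 9.24e-08, 2.24e-08 and 3.42e-08). Sox9, a stem cell factor of the ORS, was 335.9 and 421.0 there and at most 61.0 elsewhere, with differences of 2.05 from Mx and 2.17 from DF (limma adjusted p = 1.35e-05 and 2.97e-06). Tbx1 was also higher than in DF by 2.42 and DP by 3.22, and Grhl2, an epithelial grainyhead factor, by 2.44 and 3.23 (limma adjusted p = 4.18e-06 and 3.54e-07 for Tbx1, and 9.73e-06 and 8.4e-07 for Grhl2). Against Mx, Grhl2 did not pass the test (0.68, limma adjusted p = 0.0912).

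Nfatc1, known in bulge stem cells, was 343.6 and 411.0 in ORS but 548.1 and 395.9 in DF, with 4 of 7 endothelial and lymphatic markers at 200 in DF. The part of endothelial or lymphatic RNA in this DF signal was not tested. Nfatc1 was higher in ORS than in Mx by 2.19 (limma adjusted p = 1.71e-05). Ovol1, a factor of differentiating epithelial cells, was lower in ORS than in Mx by a log2 difference of -2.09 (limma adjusted p = 7.73e-05). Trps1 was lower in ORS than in DP (-3.77, limma adjusted p = 1.5e-06). Gli2, an effector of Hedgehog signalling, was higher in ORS than in Mc (3.30, limma adjusted p = 5.06e-07), as were Cebpb (3.47, 4.39e-08) and Cebpa (3.38, 1.87e-06). Each of these genes was lowest in Mc. The means of Gli2 and Cebpa were higher in DP (826 and 2080) than in ORS (549 and 999). Those of Cebpb were 1492 in ORS, 1647 in Mx, 1240 in DF and 1563 in DP.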

How the data were processed

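The deposited table holds 1 value per probe-set of the Affymetrix MOE430A array for 10 arrays, an intensity on a linear scale that the authors computed as the signal of the MAS 5.0 algorithm and scaled per array, after 1 round of RNA amplification. Of the deposited scan files, a text record per array, only the chip lot was used (other values; 6 and 4 arrays). Depth does not apply to arrays, and the precision is limited by how many there are. After leaving out 64 control probe-sets, 22626 remained, and genes were named from the platform annotation where a probe-set had 1 gene (20380 probe-sets). Each gene was represented by the brightest of its probe-sets over the 10 arrays (mean log2).

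The 8 members and the gene lists were chosen with earlier results of these data known. Members were described without a test. The test covered 8054 probe-sets whose signal reached 200 in a population's 2 arrays, among them the brightest probe-sets of 5253 genes. On log2(signal + 50), limma 3.58.1 under R 4.3.3 was fitted, with a mean per population and no block (5 residual degrees of freedom, median residual SD 0.208), and two-sided p-values of a comparison were adjusted over all tested probe-sets (Benjamini-Hochberg, called under 0.05). The methods describe independent datasets, and no source used here ties replicate numbers to shared preparations. The fit was tested on simulated data. Named were the members, their 3 most similar genes, direct relatives, and up to 4 called genes with the largest difference in each list and comparison. Cdkn1a, the lone p63 target lower against Mx, was named after its value was seen. Alternatives were other pseudocounts, filters, signal bounds, normalization, probe-set choices, blocks, single chip lots and leaving out each array. Promoters came from RefSeq on GRCm38.p6. Plots were drawn with matplotlib 3.10.9, and tables were read with pandas 2.3.3 and numpy 2.4.6, under Python 3.11.15.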

Additional observations from a re-analysis of the deposited data

How the results depend on the processing

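With 2 arrays per population, 1 array decided several values. Hr was higher in ORS than in Mx by 0.18 on the log2 scale, but by -0.19 with arrays of chip lot A only, -0.32 without Mx replicate 1 and -0.19 without ORS replicate 2 (up to 0.69 without Mx replicate 2), and under each of these reversals 6 instead of 7 members were highest in ORS. Tcf7l1 in ORS minus DF was -0.03 with arrays of chip lot B only. The count of members at 200 in ORS alone, 0, became 3 with the mean of all probe-sets of a gene (Vdr, Egr2 and Hr), 4 at a bound of 400 (Vdr, Bnc1, Egr2 and Hr) and 2 with the second brightest probe-set (Vdr and Egr2), an alternative chosen after seeing the data. Leaving out each array in turn gave 4 to 11 relatives and partners called against Mx (7 with all arrays) and 9 to 19 against DF (17), 7 to 11 p63 targets against Mx (11), and 10 to 16 other regulators against DF (16). For the other lists and settings the number called in both directions together stayed within 1.5 times. Counts in 1 direction moved further. Lower relatives went from 1 to 2 against Mx with a filter of 100 or none and from 7 to 11 against DF with none, and higher ones from 3 to 5 against DP under quantile normalization. Lower p63 targets went from 1 to 2 against Mx under quantile normalization, and to 1, 1 and 0 against DF, DP and Mc with the most tested probe-sets of a gene.

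Replicate numbers were not taken to pair samples. The correlation of replicate 2 minus replicate 1 differences was 0.34 between ORS and Mx, 0.14 with DF, -0.043 with DP and 0.191 with Mc. With the replicate block, 7, 19, 15 and 22 relatives and partners were called against Mx, DF, DP and Mc, in place of 7, 17, 14 and 20. It took the p63 targets lower than in DP from 2 to 4 and moved no other count of a list by over 1.5 times. Lot B held no Mx array, so Mx could be compared within lot A alone, with 1 array each and no test. Raw array images and present calls were not used here.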
